A study of Mus musculus with 6 samples.

Results

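The nuclear genes of the mitochondrial respiratory chain were compared between E18.5 fetal mammary cells and adult basal mammary cells. Their probes were found by gene symbol. Symbols starting with Nduf, Uqcr, Cox4, Cox5, Cox6, Cox7, Cox8 or Atp5 were taken, together with Sdha, Sdhb, Sdhc and Sdhd. This gave 124 probes for 93 genes, of 55681 probes on the array, of which 27235 could be matched to 20660 genes. The 93 genes were 36 subunits of complex I, 4 of complex II, 8 of complex III, 20 of complex IV, 17 of complex V and 8 assembly factors of complex I, which share the Nduf prefix but are not part of the finished enzyme. The arrays name probes by transcript accession, and symbols were taken from RefSeq through these accessions. RNA of freshly sorted cells from female C57Bl6J mice was measured on 1-color Agilent arrays, 1 for each of 3 fetal and 3 adult basal biological replicates. Fetal cells came from glands at embryonic day 18.5 and were CD31-CD45-Ter119-EpCAM++CD49f+. Adult basal cells came from glands of mice 8 to 12 weeks old and were CD31-CD45-Ter119-BP-1-EpCAM+CD49f+. No treatment or transgene was given for either population, and the sources used here do not say how many animals contributed to a replicate. Adult glands were digested overnight and fetal glands for a short time, so age and digestion cannot be told apart.

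The respiratory chain sits in the inner mitochondrial membrane. Complex I takes electrons from NADH and complex II takes them from succinate, complex III passes them to cytochrome c, and complex IV hands them to oxygen. Complexes I, III and IV pump protons, and complex V, the ATP synthase, lets the protons return and makes ATP. Several subunits of complex IV exist as pairs of genes, with 1 copy used in most tissues and another largely in muscle, lung, testis or under low oxygen. Subunits encoded by the mitochondrial genome were not analysed here, and the arrays report transcripts, not enzyme activity.

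Some promoters of these genes carry the letters bound by NRF1, a transcription factor of nuclear respiratory genes, and such letters are shown here before the values. A RefSeq promoter (GRCm38.p6) was at hand for 76 of the 93 genes, and the 250 bases before the gene start were read on both strands. The letters sought were GCGC, any base and TGCGC, or on the other strand GCGCA, any base and GCGC. They were present in 13 of the 76 promoters (17.1%) and in 3.86% of 27025 promoters of all genes in the same window. The letters CCGGAAG, bound by ETS factors such as GABPA, were also present in 17.1% of the 76, against 7.05% of all genes. AAGGTCA, bound by estrogen-related receptors, was present in 6.58% against 4.05%. ACGTG, the core bound by HIF, was present in 19.7% against 16.6%, the E-box CAGCTG in 7.89% against 12.8%, and the YY1 letters AAGATGG followed by CGG in 0 of 76 against 0.289%. None of these strings contains another, and base composition was not matched. A match is a description of the letters and not a site shown to be bound. The stretches below are 30 bases each from the promoters with the NRF1 letters, which are in capitals. The first 6 belong to the genes with the highest fold changes among the 13 (log2 values of 0.94 to 1.61), and the last to the only gene among them that did not differ between the populations by the test used below.
Atp5k, chr5:108434430-108434459, minus strand: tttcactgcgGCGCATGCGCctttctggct
Sdhd, chr9:50603909-50603938, minus strand: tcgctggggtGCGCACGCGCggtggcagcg
Sdha, chr13:74350319-74350348, minus strand: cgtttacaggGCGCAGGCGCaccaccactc
Ndufa5, chr6:24527697-24527726, minus strand: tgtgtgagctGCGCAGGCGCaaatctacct
Ndufs6, chr13:73328483-73328512, minus strand: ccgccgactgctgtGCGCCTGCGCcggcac
Ndufb4, chr16:37654540-37654569, minus strand: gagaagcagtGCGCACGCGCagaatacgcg
Cox6a1, chr5:115349101-115349130, minus strand: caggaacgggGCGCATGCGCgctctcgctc
The capitals begin 50 bases before the gene start in Atp5k and 16 bases before it in Ndufs6. Sdha and Ndufb4 held 3 matches each in the window and Cox6a1 held 2, of which the first is shown. The tested genes with the letters had a median log2 fold change of 0.93 (13 genes, 12 of them higher in fetal cells), and the other tested genes with a promoter had a median of 0.78 (62 genes, 56 of them higher in fetal cells). Of all probes tested, 30.8% were called higher in fetal cells and 30.4% in adult basal cells.

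Most respiratory chain transcripts were higher in the fetal cells, by a moderate amount. Of 121 probes tested, 105 were higher in fetal cells and 3 in adult basal cells, called with limma at a Benjamini-Hochberg adjusted p of 0.05 or less. Over all 20448 probes tested, 30.8% were called higher in fetal cells and 30.4% in adult basal cells. Among the 3891 probes as bright as most of these genes, with a mean of at least 12 on the log2 scale, the shares were 32.6% and 32.6%. The 3 probes not tested, for Cox7b2, Cox8c and a second Ndufaf5 probe, did not stand well above background on a single array. Each of the other 121 did so on all 6 arrays. The signal filter kept a probe whose mean linear signal reached a log2 value of about 5.95 in at least 1 population. Of the 121 probes, 120 reached it in both, and 104 of these were called higher in fetal cells, whereas the probe of Cox8b reached it in fetal cells alone. In sorted populations, fewer cells of a type and less RNA per cell cannot be told apart.

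With 1 probe per gene, the brightest tested, 80 of 91 genes were called higher in fetal cells and 2 in adult basal cells. Without Cox8b, which passed the signal filter through fetal cells alone, 79 of 90 genes were higher in fetal cells and 2 in adult basal cells. The median log2 fold change of the 91 genes, fetal over adult basal, was 0.78 (1.72-fold), and that of all tested probes was -0.03. The log2 fold change was at least 1 (2-fold higher in fetal cells) for 30 genes and between 0.5 and 1 for 38. For 17 genes it lay between 0 and 0.5, and for 6 below 0. Of all 20448 tested probes, 3346 were at least 2-fold higher in fetal cells. All 3 fetal arrays lay above all 3 adult basal arrays for 107 of the 121 probes, and the reverse held for 4. Over all tested probes these shares were 34.1% and 35%. For the genes measured by several tested probes, 21 of 23 had the same sign in all of them, and the probes of a gene differed by a median of 0.14 (log2).

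**Figure D1:**
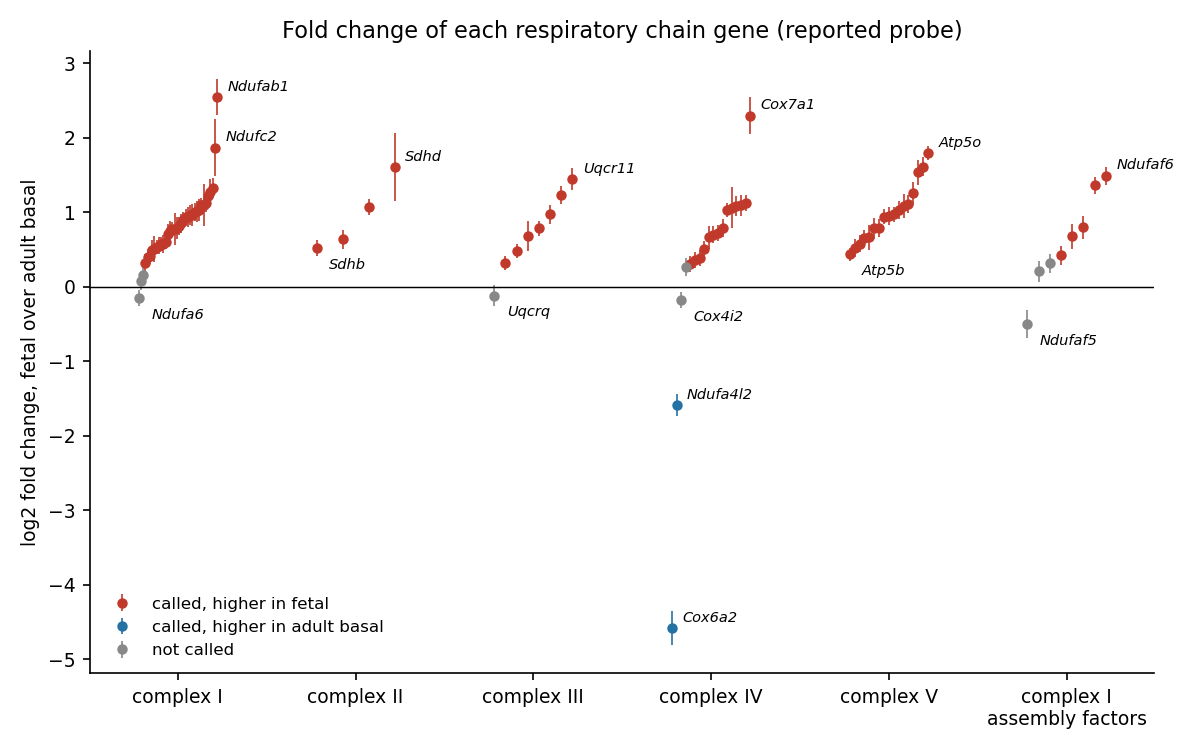
The vertical axis is the log2 fold change of fetal over adult basal cells for each gene's reported probe, with its SE from limma as a bar, and genes are grouped by complex and sorted within it. Of the 91 genes 85 lie above 0, and Cox6a2 at -4.58 and Ndufa4l2 at -1.59 are the genes called higher in adult basal cells.

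The same difference was present on each array. After each gene's mean over the 6 arrays was subtracted, the median of the 91 genes was -0.22, -0.50 and -0.45 on adult basal arrays 1, 2 and 3. It was 0.27, 0.44 and 0.48 on fetal arrays 1, 2 and 3. The 2 populations did not overlap in this median. Adult basal array 1 lay nearest to the fetal arrays, and fetal array 1 nearest to the adult basal arrays. Both were on the first of 2 slides, which held adult basal arrays 1 and 3 and fetal array 1, and the part of the slide in this was not tested. Within the first slide the medians of the 5 complexes lay between 0.57 and 0.87, and within the second between 0.85 and 1.07.

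**Figure D2:**
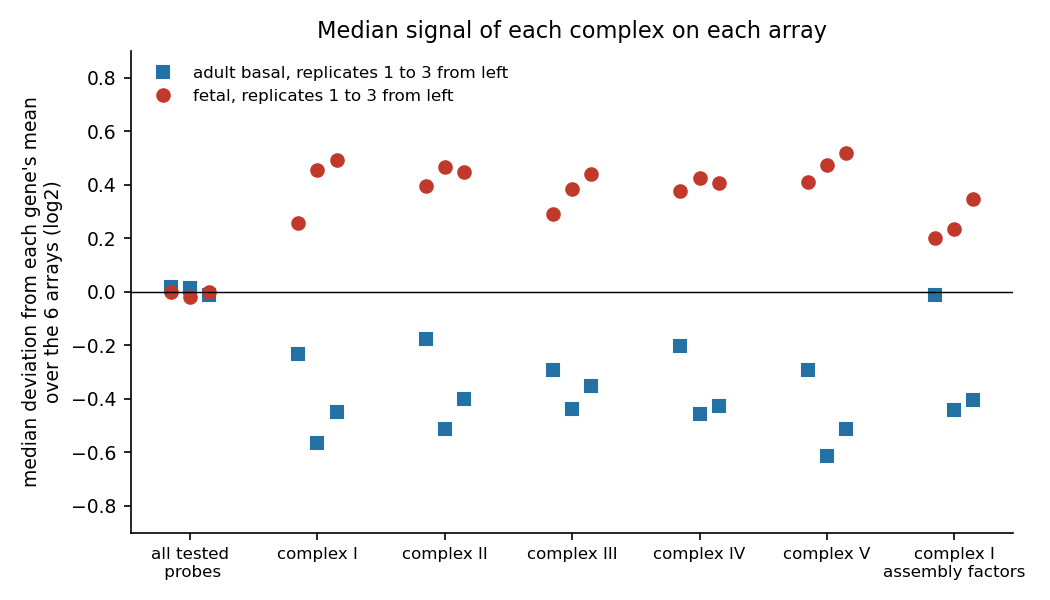
Each point is the median over genes of the deviation from the gene's own mean over the 6 arrays (log2), for all tested probes and for each complex on each of the 3 adult basal and 3 fetal arrays. All probes lie near 0 on every array, whereas in complexes I to V every fetal array lies above every adult basal array.

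Few of these differences met the study's own limits, a Holm-adjusted p of at most 0.05 together with a 2-fold change. Only 3 member probes did, 2 higher in fetal and 1 higher in adult basal cells, where 11.1% of all tested probes met them (5.92% higher in fetal and 5.18% higher in adult basal cells). They were the probes of Atp5o and Cox6a2 and 1 of 2 probes of Ndufb5. The count of 3 fell to 0 without fetal replicate 1 or without fetal replicate 2, and to 1 without fetal replicate 3 or without adult basal replicate 3. It was 2 without adult basal replicate 2 and 19 when limma's variance was modelled with a trend and robustly.

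Complex I, the entry point for NADH, was higher in fetal cells for 33 of 36 genes, with a median log2 fold change of 0.80. The counts of this and the other complexes stand beside 30.8% of all tested probes called higher in fetal and 30.4% in adult basal cells. The 7 nuclear core subunits of complex I carry the flavin and the iron-sulfur clusters, and all 7 were higher, within a narrow range of 0.55 to 0.89. Ndufv1, which holds the NADH binding site, had a log2 fold change of 0.60 and its partner Ndufv2 one of 0.89. Ndufs1 had 0.82, Ndufs3 had 0.55 and Ndufs8 had 0.78, and the adjusted p-values of these 5 genes lay between 0.000285 for Ndufv2 and 0.0161 for Ndufs8. The call of Ndufs8 was lost without fetal replicate 3 (adjusted p = 0.0555). Ndufs1, the largest core subunit, read 13.08, 12.72 and 12.84 on the adult basal arrays and 13.68, 13.66 and 13.75 on the fetal arrays. The 3 fetal arrays of Ndufs1 were nearly equal and all above the adult basal arrays.

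The accessory subunits of complex I, which surround the core and stabilise it, varied more. Of 29, 26 were higher in fetal cells. The 10 Ndufb genes, whose products lie in the membrane arm, were all higher, with a median of 0.97. The 13 Ndufa genes had a median of 0.51, and 11 of them were higher. Ndufab1 is the mitochondrial acyl carrier protein, which also serves mitochondrial fatty acid synthesis. It read 8.67, 7.80 and 7.79 on the adult basal arrays and 10.46, 10.70 and 10.72 on the fetal arrays. Its log2 fold change of 2.54 (SE 0.24, adjusted p = 7.75e-05) was the highest among the 91 genes. Ndufa6 and Ndufb9 are the subunits that bind this carrier protein inside complex I. Ndufb9 was higher in fetal cells by 0.57 (SE 0.12, adjusted p = 0.00363). Ndufa6 was the lowest of complex I, at 13.07, 13.01 and 13.16 on the adult basal and 12.81, 13.00 and 12.97 on the fetal arrays. Its log2 fold change was -0.15 (SE 0.10, adjusted p = 0.25), which did not pass the test.

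Ndufb5, a membrane arm subunit, had a dimmer probe that met the study's limits and a brighter one that did not. The dimmer probe read 9.67, 9.31 and 9.49 on the adult basal arrays and 11.09, 11.17 and 11.31 on the fetal arrays, a log2 fold change of 1.70 (SE 0.13, Holm-adjusted p = 0.0443). That call was lost under 11 of 16 alternatives, among them the omission of any 1 array, with Holm-adjusted p-values of up to 0.585. The brighter probe had 1.12 (SE 0.12, Holm-adjusted p = 0.475). Both probes of Ndufb5 separated the populations without overlap and differed only in the size of the change. Ndufv3, a small subunit of the NADH-binding module named after its values were seen, had probes that pointed apart. Its brighter probe had a log2 fold change of 0.16 (adjusted p = 0.228) and its dimmer probe one of -0.42 (SE 0.14, adjusted p = 0.0312), the latter called higher in adult basal cells. The call of the dimmer Ndufv3 probe was lost in limma with slide as a block (adjusted p = 0.0672). Leaving out an array gave an adjusted p of up to 0.106.

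Complex II, succinate dehydrogenase, is also an enzyme of the citric acid cycle, and all 4 of its genes were higher in fetal cells, with a median of 0.85. Sdha, the flavoprotein that oxidises succinate, read 12.98, 12.75 and 12.95 on the adult basal arrays and 14.00, 13.93 and 13.95 on the fetal arrays. The populations were far apart in Sdha relative to their spread, with a log2 fold change of 1.07 (SE 0.10, adjusted p = 8.85e-05). The iron-sulfur subunit Sdhb had the smallest change, 0.52 (SE 0.10, adjusted p = 0.00343), and the membrane anchor Sdhc had 0.64 (SE 0.13, adjusted p = 0.00337). The other anchor, Sdhd, read 12.97, 11.17 and 12.95 on the adult basal arrays and 13.94, 13.91 and 14.06 on the fetal arrays. Its adult basal replicate 2 stood far below the other adult basal arrays. The log2 fold change of Sdhd was 1.61 (SE 0.46, adjusted p = 0.0175) with that array and 1.01 without it, and its adjusted p was 0.0516 without fetal replicate 3.

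A low value in adult basal replicate 2 also set part of the size of some other changes. It stood at least 1 log2 unit below the mean of the other adult basal arrays for 5 of the 121 probes and for 3.42% of all tested probes. Besides Sdhd these were Ndufb7 and Ndufc2 of complex I, Cox6c of complex IV and 1 of 3 probes of Uqcrb of complex III, named here after their values were seen. Without that array the log2 fold change of Ndufc2 was 1.37 in place of 1.87, that of Ndufb7 was 0.76 in place of 1.09, and that of Cox6c was 0.72 in place of 1.06. These genes kept their calls without it. The Uqcrb probe, which was not called, went from 0.45 to 0.11, and the 2 other probes of Uqcrb had 0.32 and 0.28. The call of the brightest of these was lost without fetal replicate 2 or 3 (adjusted p of up to 0.0748). In all, 100 of the 121 probes were called higher in fetal cells without adult basal replicate 2.

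Complex III, the cytochrome bc1 complex, was higher in fetal cells for 7 of 8 genes, with a median of 0.73. The Rieske iron-sulfur protein Uqcrfs1, which passes electrons towards cytochrome c1, read 13.40, 13.52 and 13.40 on the adult basal arrays and 14.20, 14.61 and 14.44 on the fetal arrays. Its log2 fold change was 0.97 (SE 0.13, adjusted p = 0.000413). The core proteins Uqcrc1 and Uqcrc2 had 0.68 (SE 0.20, adjusted p = 0.021) and 0.48 (SE 0.09, adjusted p = 0.00275). Uqcrc1 lost its call without fetal replicate 1 and without fetal replicate 3 (adjusted p of up to 0.0726). The highest was the small subunit Uqcr11, at 13.81, 13.39 and 13.38 on the adult basal and 14.80, 15.06 and 15.03 on the fetal arrays, with a log2 fold change of 1.44 (SE 0.15, adjusted p = 0.000124). The lowest was Uqcrq, which lies next to cytochrome b. Uqcrq read 15.23, 14.97 and 14.96 on the adult basal arrays and 14.70, 14.96 and 15.14 on the fetal arrays. These values overlapped, and the log2 fold change of -0.12 (SE 0.15, adjusted p = 0.513) did not pass the test, nor did its second probe at -0.34 (SE 0.16, adjusted p = 0.107).

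In complex IV, cytochrome c oxidase, the isoforms with restricted expression and Cox7a2l, a broadly expressed relative of Cox7a2, were set apart. Of the other 11 genes 10 were higher in fetal cells, with a median of 0.79, and with Cox7a2l counted among them 11 of 12 were, with a median of 0.75. They ran from Cox6a1 at 0.27 to Cox7a2 at 1.12 (SE 0.11, adjusted p = 7.87e-05). Cox4i1, the usual form of the largest nuclear subunit, read 15, 14.77 and 14.66 on the adult basal arrays and 15.58, 15.60 and 15.61 on the fetal arrays, which made 0.79 on the log2 scale (SE 0.12, adjusted p = 0.000757). Cox6a1, the usual form of subunit 6A, read 16.93, 16.74 and 16.58 on the adult basal arrays and 16.96, 17.00 and 17.08 on the fetal arrays. The 3 fetal arrays of Cox6a1 lay just above the adult basal arrays, but its change of 0.27 (SE 0.12, adjusted p = 0.0922) did not pass the test. Ndufa4, once counted in complex I and now placed in complex IV, had 0.31 (SE 0.11, adjusted p = 0.0443). The call of Ndufa4 was lost under 11 of 16 alternatives.

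The isoforms with restricted expression did not move as a block. Cox6a2, the subunit 6A of heart and skeletal muscle, read 11.46, 11.56 and 10.68 on the adult basal arrays and 6.73, 6.70 and 6.55 on the fetal arrays. The populations lay far apart, and both had signal well above background. Its log2 fold change of -4.58 (SE 0.23, Holm-adjusted p = 0.00289) was a signal 23.8-fold higher in adult basal cells. This was the largest difference in either direction among the 91 genes. With the normexp background correction the log2 fold change was -3.87, a smaller fold. The change was -4.34 within the first slide and -4.93 within the second, and the Holm-adjusted p rose to 0.0609 without fetal replicate 1 and to 0.0515 without fetal replicate 2.

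Ndufa4l2, a relative of Ndufa4 known as a target of the hypoxia response, was the other gene higher in adult basal cells. It read 12.64, 12.47 and 12.11 on the adult basal arrays and 10.83, 10.78 and 10.85 on the fetal arrays. The log2 fold change was -1.59 (SE 0.15, adjusted p = 6.87e-05), 3.01-fold in size. Cox4i2, the form of subunit 4 used in lung and under low oxygen, read 13.34, 13.18 and 13.16 on the adult basal arrays and 13.17, 12.92 and 13.05 on the fetal arrays. These values overlapped, and the change of -0.18 (SE 0.11, adjusted p = 0.207) did not pass the test.

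Cox7a1, the subunit 7A of muscle and brown fat, changed the opposite way from Cox6a2. It read 7.80, 7.57 and 8.45 on the adult basal arrays and 9.94, 10.43 and 10.33 on the fetal arrays, with no overlap. The log2 fold change of 2.30 (SE 0.24, adjusted p = 0.000132) was 4.91-fold, the largest increase in complex IV, and was 1.82 within the first slide and 2.81 within the second. Cox8b, the muscle form of subunit 8, was dim in both populations, at 5.54, 5.53 and 5.04 on the adult basal arrays and 5.93, 6.07 and 6.11 on the fetal arrays. Its adult basal mean was below the signal limit and its fetal mean just above it, so it was tested only through the population where it was high. It had no value with the normexp background correction, and its log2 fold change of 0.66 (SE 0.16) is given with no test. Cox6b2, the testis form of subunit 6B, had 0.36 (SE 0.11, adjusted p = 0.0243). Cox7a2l, which is not a form of restricted expression, had 0.39 (SE 0.11, adjusted p = 0.019). Cox6b2 lost its call under 6 of 16 alternatives, with slide as a block (adjusted p = 0.057) and without adult basal replicate 3 or any fetal replicate among them. Cox7a2l lost it without fetal replicate 2 or 3 (adjusted p of up to 0.0747). The testis genes Cox7b2 and Cox8c had no array with a signal well above background.

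**Figure D3:**
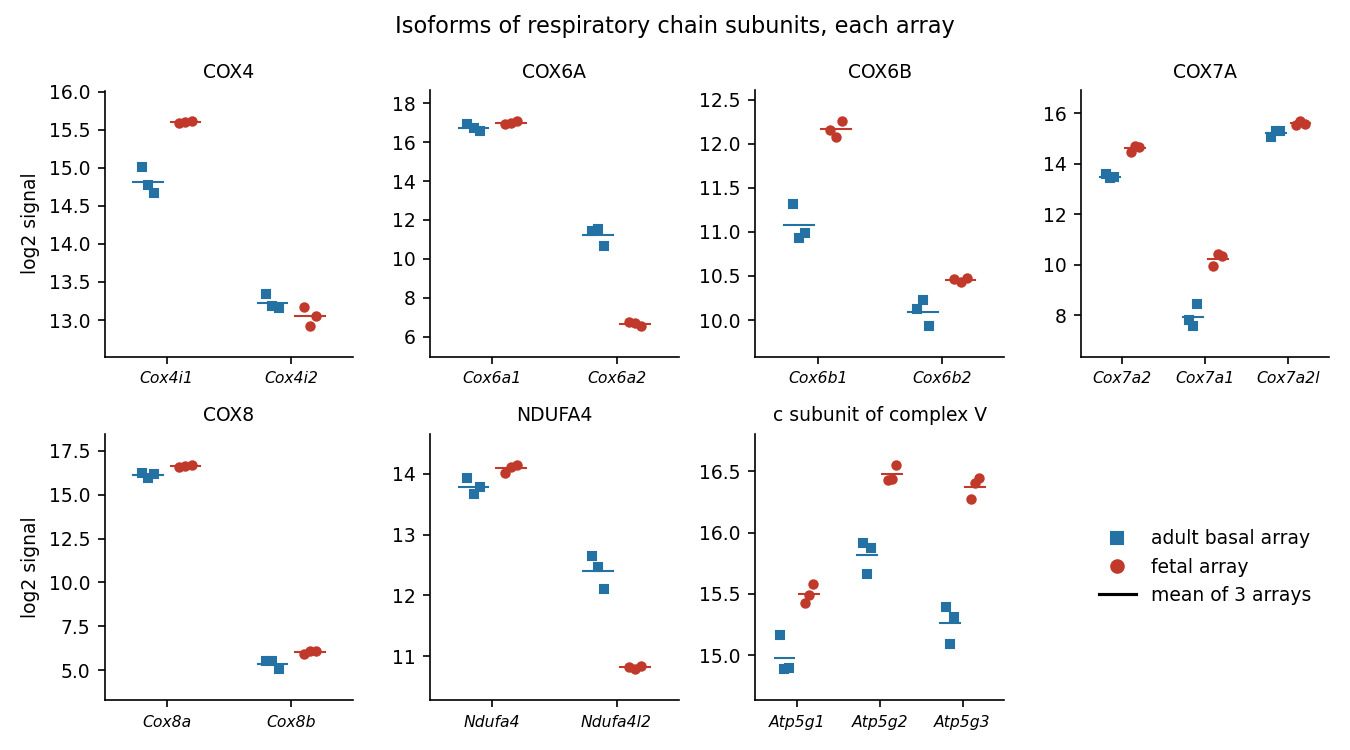
Log2 signal of each array (squares adult basal, circles fetal, lines the mean of 3 arrays) for the isoforms of 6 families of complex IV subunits and for the c subunit genes of complex V, with a scale of its own in each panel. Cox6a2 and Ndufa4l2 are lower on every fetal array, Cox7a1 is higher on every fetal array, and Cox4i2 overlaps; heights of different genes in a panel are not comparable because each probe has its own brightness.

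The difference between an isoform or relative and the usual form of the same subunit was also taken within each array, where array-wide effects drop out. It shows unequal change and not the share of either protein. Cox6a2 against Cox6a1 fell by 4.84 on the log2 scale in fetal relative to adult basal cells, 28.7-fold. Ndufa4l2 against Ndufa4 fell by 1.89, and Cox4i2 against Cox4i1 fell by 0.96. Cox4i2 itself did not pass the test, whereas Cox4i1 was higher in fetal cells. Cox7a1 against Cox7a2 was 1.18 higher in fetal cells, although Cox7a2 had also gone up. Cox7a2l against Cox7a2 fell by 0.73 and Cox6b2 against Cox6b1 by 0.73. Cox8b against Cox8a changed by 0.16, with overlapping arrays. In a 2-sided exact permutation test each of the first 6 comparisons had p = 0.10, the smallest that 3 arrays against 3 can give, and 0.117 after Benjamini-Hochberg adjustment over the 7 pairs, so none can pass 0.05. For Cox8b against Cox8a no p-value is given, because Cox8b passed the signal filter through fetal cells alone. That pair is still counted among the 7 of the adjustment.

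Complex V, the ATP synthase, was higher in fetal cells for all 17 genes, against 30.8% of all tested probes, with a median of 0.95. In the catalytic head the median of 5 genes was 0.94. Atp5b, the catalytic beta subunit, had the smallest change of the complex, from 16.75, 16.76 and 16.64 on the adult basal arrays to 17.16, 17.17 and 17.12 on the fetal arrays. The arrays of each population lay close together in Atp5b, and the log2 fold change of 0.43 (SE 0.09, adjusted p = 0.00515) passed the test. The alpha subunit Atp5a1 had 0.97 (SE 0.10, adjusted p = 0.000142). The c subunit, which forms the rotating ring in the membrane, is made from 3 genes that encode the same mature protein. All 3 were higher, Atp5g1 by 0.52 (SE 0.12, adjusted p = 0.00631), Atp5g2 by 0.66 (SE 0.11, adjusted p = 0.0015) and Atp5g3 by 1.11 (SE 0.12, adjusted p = 0.000133).

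The largest change in complex V was in Atp5o, the oligomycin sensitivity conferring protein, which ties the head to the peripheral stalk. It read 12.39, 12.39 and 12.35 on the adult basal arrays and 14.12, 14.13 and 14.25 on the fetal arrays. Both populations were tight in Atp5o, and the log2 fold change of 1.79 (SE 0.09, Holm-adjusted p = 0.00419) was 3.46-fold. The change was 1.75 within the first slide and 1.80 within the second. Its Holm-adjusted p rose above 0.05 when adult basal replicate 3 (0.0511) or any fetal replicate was left out (0.0811, 0.0845 and 0.068 without fetal replicates 1, 2 and 3). With replicate number as a block, the Holm-adjusted p of Atp5o was 0.122. The 5 small membrane subunits, some of which shape the dimers of the enzyme, had a median of 1.25. Among them Atp5k, subunit e, read 13.39, 13.07 and 13.03 on the adult basal arrays and 14.64, 14.89 and 14.81 on the fetal arrays, a change of 1.61 (SE 0.13, adjusted p = 3.85e-05). Atpif1, which blocks the reverse reaction of the enzyme and was not found by the name rule, was higher in fetal cells by 0.44 (adjusted p = 0.0135).

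Of the 8 assembly factors of complex I, 5 were higher in fetal cells (62.5%) and 0 in adult basal cells, with a median of 0.55. Over all tested probes these shares were 30.8% and 30.4%. The highest was Ndufaf6, needed for the early assembly of the complex, at 9.13, 8.98 and 8.86 on the adult basal arrays and 10.31, 10.57 and 10.56 on the fetal arrays. Its log2 fold change was 1.49 (SE 0.12, adjusted p = 3.64e-05). The lowest was Ndufaf5, an enzyme that modifies the core subunit Ndufs7, at 10.51, 10.63 and 9.98 on the adult basal arrays and 9.91, 9.67 and 10.04 on the fetal arrays. The populations overlapped in Ndufaf5, and its change of -0.50 (SE 0.19, adjusted p = 0.0549) did not pass the test.

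Assembly factors of the other complexes were also read. For complex IV, 14 of 21 genes were higher in fetal cells (66.7%) and 4 in adult basal cells (19.0%), against 30.8% and 30.4% of all tested probes. Of these genes Cox10 reached the signal limit in fetal cells alone, and among the other 20 the counts were 13 and 4. Cmc2, needed to build cytochrome c oxidase, was higher by 3.17 (adjusted p = 2.75e-06), whereas the copper chaperone Sco2 had -1.27 (adjusted p = 0.000375) and Surf1 had -0.96 (adjusted p = 0.000214). For complexes II, III and V, 5 of 11 were higher in fetal (45.5%) and 1 in adult basal cells (9.09%). Sdhaf4, an assembly factor of complex II, had 2.07 (adjusted p = 2.2e-05).

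Other mitochondrial genes were set beside the respiratory chain. Of the 46 tested proteins of the large mitochondrial ribosomal subunit, 40 were higher in fetal cells (87.0%) and 0 in adult basal cells, with a median of 0.75, against shares of 30.8% and 30.4% over all tested probes. The 6 others were not called. Of the 17 genes of the citric acid cycle and of pyruvate dehydrogenase, 13 were higher in fetal cells and 1, Ogdh, in adult basal cells, with a median of 0.45. Idh2, the NADP-dependent isocitrate dehydrogenase, was higher by 1.25 (adjusted p = 3.13e-05), and citrate synthase, Cs, had 0.30 (adjusted p = 0.0327). The electron carriers outside the name rule, Cyc1 and cytochrome c (Cycs), were higher by 0.94 (adjusted p = 0.000925) and 0.53 (adjusted p = 0.008). The ADP/ATP carriers Slc25a4 and Slc25a5 were higher by 0.43 (adjusted p = 0.0456) and 0.90 (adjusted p = 0.00402), as was the phosphate carrier Slc25a3 by 0.75 (adjusted p = 0.00448). The uncoupling protein relatives Ucp2 and Ucp3 were lower in fetal cells, at -1.73 (adjusted p = 9.1e-05) and -1.81 (adjusted p = 7.02e-05). In the list of these carriers, 3 of 5 tested genes were higher in fetal cells (60%) and 2 in adult basal cells (40%).

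**Figure D4:**
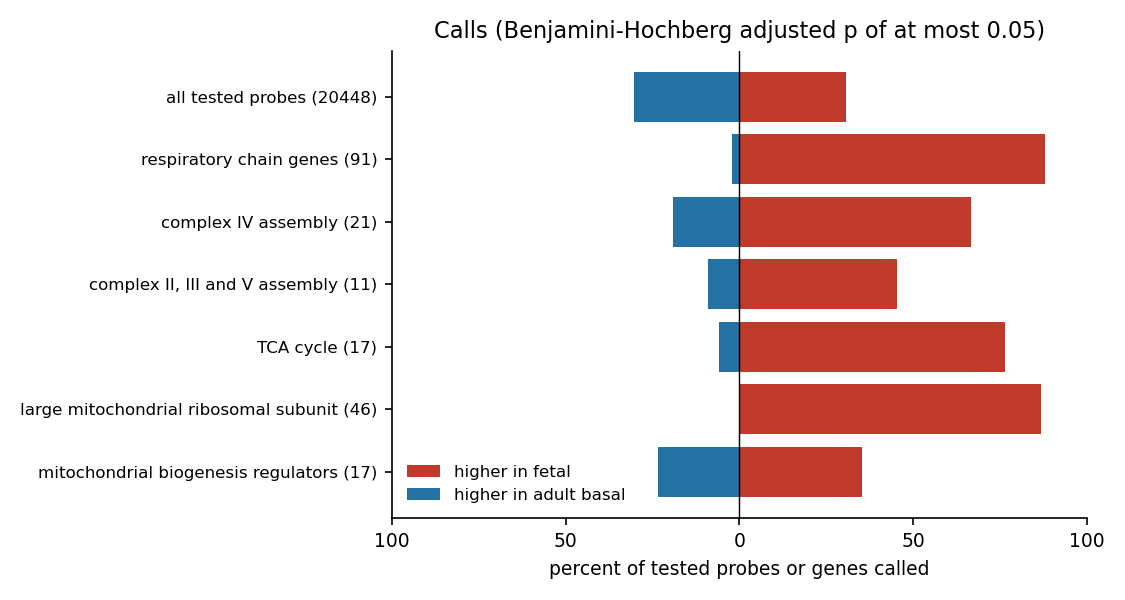
Bars give the percent of tested probes or genes called higher in fetal cells (right) and higher in adult basal cells (left) by limma at a Benjamini-Hochberg adjusted p of at most 0.05, for all tested probes, the respiratory chain and 5 other lists, with the number tested in parentheses. All tested probes are split almost evenly, at 30.8% and 30.4%, whereas the respiratory chain and the mitochondrial ribosome lie almost wholly on the fetal side and the regulators of mitochondrial biogenesis lie on both.

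Of 17 tested regulators of mitochondrial biogenesis, 6 were higher in fetal cells (35.3%) and 4 in adult basal cells (23.5%), with a median of 0.17. These shares were near the 30.8% and 30.4% of all tested probes. Ppargc1a, the coactivator PGC-1alpha, read 4.31, 6.11 and 5.29 on the adult basal arrays and 10.16, 10.42 and 10.14 on the fetal arrays. It was near the low end of the scale in adult basal cells and far above it in the fetal ones, with means of 5.24 and 10.24. Because it reached the signal limit in fetal cells alone it had to differ, and no test is given. Among the other 16 regulators 5 were higher in fetal cells and 4 in adult basal cells. Its relatives went the other way, Ppargc1b by -0.91 (adjusted p = 0.00427) and Pprc1 by -0.70 (adjusted p = 0.00277). Tfam, which packages and transcribes mitochondrial DNA, was higher in fetal cells by 0.42 (adjusted p = 0.0145). Nrf1, whose letters are printed above, had -0.41 (SE 0.19, adjusted p = 0.0965), and Gabpa had 0.23 (adjusted p = 0.127), neither of which passed the test.

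Proliferation and mammary cell markers also differed between the populations. All 16 tested proliferation genes were higher in fetal cells, 14 of them with a signal above the limit in both populations. Their summed linear signal was 24650, 23641 and 25252 on the adult basal arrays and 268182, 289148 and 289271 on the fetal arrays. Over the fetal arrays the brightest probe of the list was that of Mcm6, a subunit of the replicative helicase, and over the adult basal arrays that of Pcna, the sliding clamp of DNA replication. Of 12 luminal markers 7 were higher in fetal cells (58.3%) and 3 were lower (25%), where all tested probes gave 30.8% and 30.4%. Among the 10 above the signal limit in both populations these counts were 6 and 2. The receptor tyrosine kinase Kit was higher by 4.0 (adjusted p = 1.36e-06), whereas Krt19 had -1.22 (adjusted p = 0.000411) and Prlr had -0.35 (adjusted p = 0.0231). Gata3 at 0.15 (adjusted p = 0.384) and Cd14 at 0.14 (adjusted p = 0.402) did not pass the test. Of the basal markers, adult basal cells had the higher signal for 9 of 12 (75%), and for 8 of the 11 above the limit in both. The smooth muscle actin Acta2 had -4.07 (adjusted p = 1.16e-06) and the smooth muscle calponin Cnn1 had -6.01 (adjusted p = 1.64e-06). Trp63 at -0.08 (adjusted p = 0.515) and Krt14 at -1.20 (adjusted p = 0.0772) did not pass the test, and Vim was higher in fetal cells. Of 196 tested genes in the lists beside the respiratory chain, 12 reached the signal limit in 1 population alone and so passed the filter through that population. These were Cox10, Ppargc1a, Elf5, Esr1, Myh11, Bub1, Aurkb, Pdgfrb, Rgs5, Myh8, Cdh5 and Adipoq, and 11 of them were called, all but Adipoq. The fetal mean of Adipoq on the log2 scale was 5.92, just under the printed limit. The filter kept it because it used the mean of the linear signals, to which fetal replicate 3 (8.17 on the log2 scale) contributed most. The part of proliferation and of cell type in the respiratory chain values was not tested.

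Markers of other cells were read beside the isoforms. Both populations had been sorted as positive for EpCAM, a surface protein of epithelial cells, and negative for CD31, CD45 and Ter119, which depletes endothelial and blood cells, and the adult cells also as negative for BP-1, which depletes stromal cells. Of the 8 tested skeletal muscle markers, 4 were higher in adult basal cells (50%), as Cox6a2 was, and 0 in fetal cells, against 30.4% and 30.8% of all tested probes. Among the 7 above the signal limit in both populations, 3 were higher in adult basal cells. The summed signal of the list was 22416, 24974 and 22413 on the adult basal arrays and 2406, 2574 and 2355 on the fetal arrays. On the adult basal arrays most of it came from Acta1, the skeletal muscle actin, whose log2 fold change was -4.68 (adjusted p = 3.36e-07). The other 2 of these were the myosin Myh2 at -0.82 (adjusted p = 0.0019) and Actn3 at -0.36 (adjusted p = 0.0323). The muscle regulator Myog at -0.17 (adjusted p = 0.216) and the troponins Tnnt3 at 0.03, Tnnc2 at 0.01 and Tnni2 at 0.06 did not pass the test. The myosin Myh8, above the limit in adult basal cells alone, had means of 5.98 in adult basal and 4.87 in fetal cells. Des was well above background on all 3 adult basal and 0 fetal arrays. Myh4 was so on 0 arrays, Myl1 on all 3 fetal and 0 adult basal arrays, and Myh1 on 2 fetal and 0 adult basal arrays. Ckm, Mylpf and Myh3 were well above background on all 6 arrays but below the signal limit, and were not tested. Of the 8 tested brown and white adipocyte markers, 1 was higher in fetal cells (12.5%) and 1 in adult basal cells (12.5%). Over all tested probes these shares were 30.8% and 30.4%. Cidea was higher in fetal cells, as Cox7a1 was, by 1.57 (adjusted p = 0.000568), and Dio2 had -0.83 (adjusted p = 0.000609). The other 6, Pparg, Cfd, Plin1, Fabp4, Adipoq and Lep, were not called. The summed signal of that list was 2683, 2629 and 3053 on the adult basal arrays and 2089, 2056 and 3920 on the fetal arrays. Fabp4 had the brightest probe of the list on all 3 adult basal arrays and on fetal replicate 3, Plin1 on fetal replicate 1 and Cidea on fetal replicate 2. Ucp1, the uncoupling protein of brown fat, was well above background on 1 fetal and 0 adult basal arrays, and Elovl3 on none.

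Of the 7 tested pericyte markers, 4 were higher in adult basal cells (57.1%), as Ndufa4l2 was, and 1, Notch3, in fetal cells (14.3%), against 30.4% and 30.8% of all tested probes. Among the 5 above the signal limit in both populations, 2 were higher in adult basal cells and 1 in fetal cells. Pdgfrb and Rgs5 were above the signal limit in adult basal cells alone, with adult basal means of 9.31 and 7.0 and fetal means of 4.97 and 4.78. The other 2 of the 4 were Mcam at -0.98 (adjusted p = 8.13e-05) and Abcc9 at -0.33 (adjusted p = 0.0488). The summed signal of that list was 81533, 88044 and 84630 on the adult basal arrays and 52362, 49166 and 49043 on the fetal arrays. Mcam had the brightest probe of the list on every array, and Kcnj8 was well above background on 0 arrays. Of the 7 tested fibroblast markers 5 were higher in adult basal cells (71.4%), all above the limit in both populations. Of 6 endothelial and blood markers 1 was (16.7%), Cdh5, which was above the limit in adult basal cells alone. The part of these cells in the isoform values was not tested.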

How the data were processed

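The scanner intensities were deposited by the authors as Feature Extraction 11.0.1.1 output, a linear processed signal with background subtracted and no normalization between arrays, beside median spot and background intensities and spot flags. The authors also deposited a log2 table, quantile normalized, each column of which has a median of 7.11. Here, control and outlier spots (104 to 326 an array) were dropped, log2 processed signals were averaged per probe and quantile normalized, and accessions were matched to RefSeq (48.9% of probes; scanner files used here held accessions and no symbols). Probes whose mean linear signal had a log2 value below about 5.95 in both populations, the limit from k-means with 3 clusters, were removed. This left 20448 probes, fitted in R 4.3.3 with limma 3.58.1 (lmFit, eBayes). Between 76.4% and 83.3% of probes an array were well above background and none saturated; 3 arrays a group limit the precision. Tables and plots used Python 3.11.15, pandas 2.3.3, numpy 2.4.6, scipy 1.17.1 and matplotlib 3.10.9. The fit was also run on simulated data, and the outcome is not reported here.

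Members, gene lists and tests were chosen with earlier results of these data known. Each gene's reported probe is its brightest tested. Genes were named by a rule: those meeting the study's limits, the highest and lowest of each complex, the isoforms, core subunits of complex I (values of some are not reported here), the Sdh and c subunit genes, and list members where a list is described. Uqcrfs1, Uqcrc1, Uqcrc2, Atp5a1, Atp5k, Ndufb9 and genes with a printed promoter were added for their role or sequence. The labels describe Low Input Quick Amp labelling with a T7 primer and the methods its whole-transcript version. Alternatives were another normalization (75th percentile), the deposited log2 values, normexp (offset 50), other probe filters, a trended robust variance, an offset of 16, blocks for replicate number and slide, each array left out, the mean of a gene's probes, and other memberships. Brightness as a background and Cox7a2l counted with the usual subunits were added after seeing the data.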

Additional observations from a re-analysis of the deposited data

How the results depend on the processing

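The direction of the result did not depend on the settings tried. The probes called higher in fetal cells numbered between 96 and 106 under all alternatives but one, with 90 without fetal replicate 3, and those higher in adult basal cells between 2 and 4. Leaving out each array in turn gave 90 to 106 and 2 to 4. Of 1454 values for the 91 genes under 16 alternatives, 1396 kept direction and side of the threshold, 50 lost the call, 7 gained it and 1 turned its sign (Ndufa1, which was not called: -0.0027 without adult basal replicate 3, and up to 0.16 without fetal replicate 1). Of 82 called genes, Cox8b among them, 70 kept the call throughout. Ndufa4 (11 of 16 lost), Ndufa7 (9), Ndufa11 (7) and Cox6b2 (6) lost it most often.

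The count of 3 probes by the study's limits depended most on the setting. It was 10 with normexp, 19 with the trended robust variance and 9 with an offset of 16, and leaving out each array gave 0 to 3. The cause was not tested. With replicate number as a block it was 1 (Cox6a2; the Holm-adjusted p of Atp5o was 0.122 with the block), and the block gave 99 probes higher in fetal and 3 in adult basal cells. Deviations of arrays with the same number correlated at -0.03, 0.09 and 0.05, so the numbers were not taken to pair the samples. The median of complex III was 0.62 to 0.84 with an array left out, and that of complex IV was 0.68 with the restricted isoforms and Cox7a2l included. Within slide 1 the medians were 0.72 for complex II, 0.57 for III and 0.67 for IV. Within slide 2 they were 1.00 for complex I, 0.95 for III and 1.07 for V. Leaving out an array gave 0.75 to 0.91 for complex I, 0.81 to 0.92 for II, 0.71 to 0.88 for IV and 0.90 to 1.03 for V.

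Arrays carry no counts, and signals from near-identical pseudogenes of these subunits cannot be told apart from the genes. P-values rest on 3 arrays a group and on the variance that limma shares among probes.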
